A study of Mus musculus with 4 samples.

Results

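Metallothioneins and zinc handling were followed through 5 genes, Mt1, Mt2, Mtf1, Slc30a1 and Slc39a10, out of 31053 genes in the deposited count tables. The genes were chosen from the fall in Mt1 and Mt2 UMIs at 4 °C already seen in these data, so their values are a description and carry no p-values. Data came from single-cell RNA-seq of ChAT-eGFP+ cells, sorted from the stromal vascular fraction (SVF) of inguinal white adipose tissue (IWAT) of male ChATBAC-eGFP mice. All mice carried the eGFP reporter and entered 3 weeks of thermoneutrality at 5 weeks of age. Mice of 2 libraries then stayed at 30 °C, and mice of the other 2 were exposed to 4 °C for 4 h. Each library pooled 4 mice. Per the study's methods, cold-exposed mice also passed a day at room temperature before the cold, a step that the 30 °C mice did not share, so the 2 steps cannot be told apart. The reporter is driven by a bacterial artificial chromosome that carries the Chat locus, and the sort keeps any SVF cell that expresses it.

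Metallothioneins are small cysteine-rich proteins that bind zinc and copper and buffer the free metal in the cell. Mtf1 encodes metal-responsive transcription factor 1 (MTF-1), the zinc sensor that binds metal response elements (MREs) in metallothionein promoters and induces them when zinc rises. Slc30a1 encodes the plasma membrane exporter ZnT1, itself an MTF-1 target, and Slc39a10 encodes the importer ZIP10, a gene known to be held down by MTF-1 when zinc is plentiful. Glucocorticoids and oxidative stress are further known inducers of metallothioneins, and macrophages are known to draw on them when they sequester zinc during infection.

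The 4 libraries held 6272 to 6883 cells and 76058112 to 84468931 UMIs (unique molecular identifiers, 1 per captured transcript), with a median of 7505 to 8210 UMIs per cell. Between 34.5% and 45.4% of cells had a Chat UMI and 88.7% to 93.9% had a UMI of the immune marker Ptprc, and no row of the tables is named for eGFP. Of 21253 cells that passed the filters, 18639 fell into 15 cell types by counts of marker genes, and 13 types had at least 20 cells in every library. Libraries shared 10 to 18 cell barcodes per pair. Levels are UMIs summed over the cells of a type in 1 library and given per 1000000 UMIs of that sum (CPM).

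Mt1 lies at chr8:94179082-94180327 and Mt2 at chr8:94172664-94173568 (mm10, both on the plus strand), with 5513 bases between them and 3 exons each. Mtf1 lies at chr4:124802104-124849800, Slc30a1 at chr1:191906767-191913247 and Slc39a10, on the minus strand, at chr1:46807544-46892852. UMIs are read from transcript 3′ ends, so the counts concern the last exon of each gene. Mt1 and Mt2 are similar in sequence, so a share of their UMIs may be exchanged or lost. An antisense gene, Gm45774, overlaps Mt2 on the minus strand, and its part in the counts was not tested. Promoter windows were available for 5 of the 5 genes (RefSeq, GRCm38.p6), and the 250 bases before each start were searched on both strands for the MRE cores TGCACNC and TGCGCNC. The stretches below are shown because they hold these cores, which MTF-1 is known to bind. Each stretch reads along the plus strand and ends at the base before the earlier of the RefSeq and GENCODE starts. That is the RefSeq start for Mt2 and the GENCODE start for Mt1 and Slc30a1. Capitals mark MRE cores, also where the core reads on the other strand.
Mt1, chr8:94178932-94179081: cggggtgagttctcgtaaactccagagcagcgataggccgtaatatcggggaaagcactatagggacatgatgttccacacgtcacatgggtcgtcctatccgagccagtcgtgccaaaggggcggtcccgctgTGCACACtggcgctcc
Mt2, chr8:94172468-94172617: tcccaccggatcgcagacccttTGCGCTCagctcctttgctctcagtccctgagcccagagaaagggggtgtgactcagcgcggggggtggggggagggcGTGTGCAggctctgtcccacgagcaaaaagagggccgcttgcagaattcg
Slc30a1, chr1:191906617-191906766: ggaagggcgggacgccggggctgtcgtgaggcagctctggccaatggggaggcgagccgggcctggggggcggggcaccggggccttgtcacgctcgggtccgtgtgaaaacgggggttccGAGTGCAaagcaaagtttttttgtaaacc

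In the 250 bases before the RefSeq start, Mt2 held 3 MRE cores, at 223 (upstream of the stretch shown), 128 and 50 bases. Mt1 and Slc30a1 held 1 each, at 23 and 43 bases before their RefSeq starts, which lie downstream of the stretches shown. Mtf1 held none in its window, chr4:124802299-124802598, and Slc39a10 none in its 2 windows, chr1:46925727-46926026 and chr1:46853569-46853868. The Mtf1 window lies inside the gene interval given above. Those of Slc39a10 lie outside and inside its interval, so for both genes the bases before the GENCODE start were not searched. Among 32851 RefSeq windows of this length, 21.4% held at least 1 such core and 1.26% at least 3. Mt1 and Mt2 have further annotated starts in GENCODE, and the 250 bases before the first of these in Mt2 held 3 cores. The 250 bases before the Mt1 starts at 129 and 159 bases downstream of its first GENCODE start held the same 5 cores. Among them is the core at 23 bases named above, and the others lie downstream of the stretch shown. Of the RefSeq windows, 0.0822% held at least 5. The 250 bases before the Mt2 start at 196 bases downstream of its first GENCODE start held 4, which 0.304% reached. The Mt2 windows overlap, so some cores are counted more than once. The antioxidant response element core TGACNNNGC, the motif bound by NRF2, was present once each in Mt2 and Slc30a1 and in 10.2% of all windows. The glucocorticoid response element palindrome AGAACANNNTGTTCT was in none of the windows of the 5 genes and in 0.00913% of all windows, which says only that these letters are absent there. A motif match is a description of sequence and not of binding.

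At 30 °C, metallothionein RNA was concentrated in the myeloid and stromal cells of the sort. Mt1 stood at 3219.8 and 3145 CPM in macrophages, at 1183 and 5025 CPM in stromal cells, and at 1014 and 1020.4 CPM in dendritic cells. Plasma cells followed with 498 and 342 CPM. Proliferating T cells (68.6 and 102 CPM), regulatory T cells (95.9 and 68.3 CPM) and B cells (39.0 and 39.2 CPM) were lower still, and germinal centre (GC) B cells were lowest at 11.6 and 7.02 CPM. The ranges of macrophages and stromal cells overlapped, as did those of proliferating and regulatory T cells, while macrophages, dendritic cells, plasma cells and B cells each stood apart from one another. Mt2 ran in a similar order, with 591 and 594 CPM in macrophages, 123 and 145 CPM in dendritic cells, 87.0 and 40.1 CPM in plasma cells and 3.59 and 2.15 CPM in B cells.

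At 4 °C this order was compressed. Dendritic cells (565 and 667 CPM), stromal cells (578 and 634 CPM) and macrophages (586 and 566 CPM) then overlapped in Mt1. For Mt2, macrophages had the third highest level, 26.7 and 39.8 CPM, below dendritic cells at 82.3 and 99.2 CPM and stromal cells at 257 and 295 CPM.

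**Figure D1:**
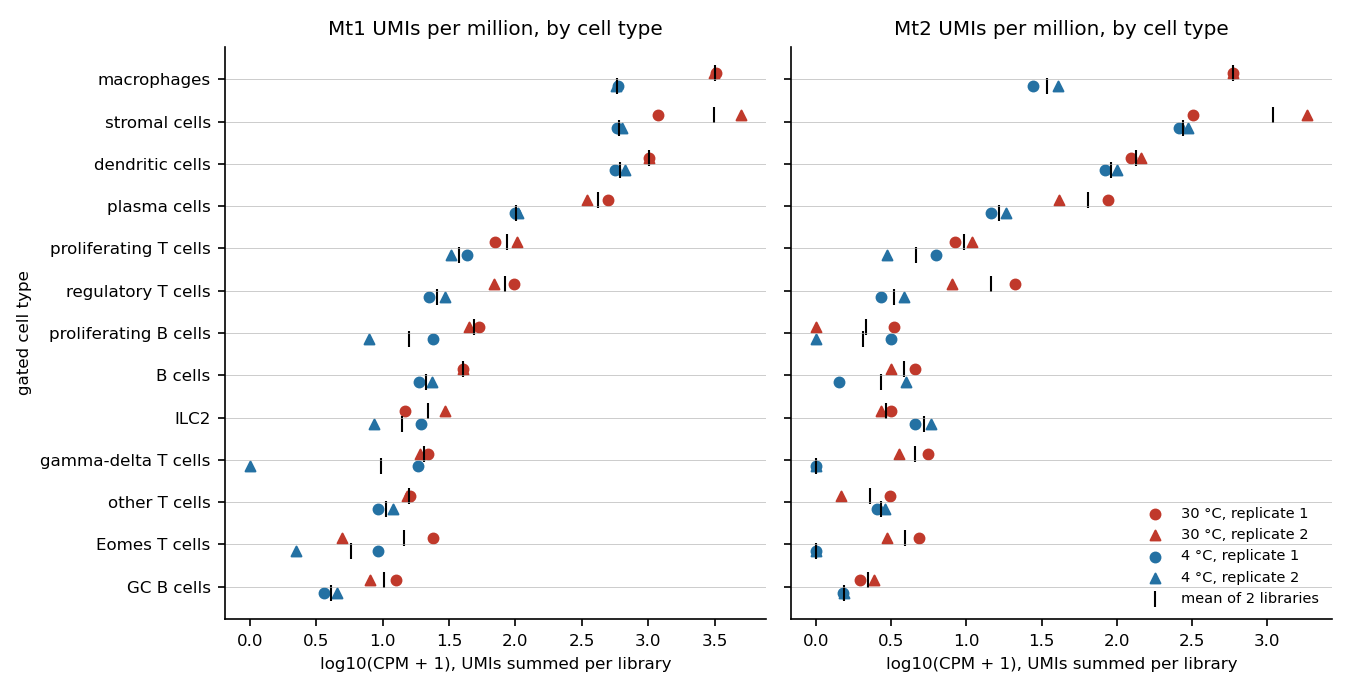
Mt1 (left) and Mt2 (right) in the 13 gated cell types, as log10(CPM + 1) on the horizontal axis, with a point for each of the 4 libraries (red, 30 °C; blue, 4 °C; circles, replicate 1; triangles, replicate 2) and a bar at the mean of the 2 libraries. Macrophages fell from 3219.8 and 3145 to 586 and 566 CPM of Mt1, and the spread between libraries was wide in stromal cells at 30 °C and in the rarest types.

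Macrophages had the lowest fitted change of both metallothioneins. Mt1 gave 4706 and 5118 UMIs in 143 and 166 macrophages at 30 °C, against 2083 and 825 UMIs in 406 and 152 macrophages at 4 °C. The fitted change was −2.52 ± 0.08 (log2 fold change ± SE, edgeR), or 5.73-fold lower at 4 °C. Mt2 fell further, from 864 and 966 UMIs to 95 and 58 UMIs, a log2 fold change of −4.29 ± 0.15, or 19.6-fold lower. For both genes the 2 cold libraries lay far below the 2 thermoneutral ones, without overlap. Among 8961 genes tested in macrophages, Mt2 ranked 8th and Mt1 55th from the lowest log2 fold change. A gene was called where edgeR's quasi-likelihood test gave an adjusted p under a threshold of 0.05, and 17.2% of genes were called in macrophages in either direction and 8.54% as lower.

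The fall was spread over the macrophages, whose top 10% of cells held 34.8% to 43.1% of Mt1 plus Mt2 UMIs in the 4 libraries. An Mt1 UMI was present in 97.9% and 99.4% of macrophages at 30 °C and in 86.5% and 83.6% at 4 °C. For Mt2 the shares were 77.6% and 71.7% at 30 °C and 13.5% and 12.5% at 4 °C. The exact 95% binomial intervals of Mt2, which cover counting error only, reached no lower than 64.2% at 30 °C and no higher than 18.8% at 4 °C. Median depth was similar, at 8190.5 to 9633 UMIs per macrophage, and with every cell thinned to 4400 UMIs the Mt2 shares were 68.9%, 61.4%, 8.60% and 10.4%. The median macrophage held 28.1 and 25.8 Mt1 plus Mt2 UMIs per 10000 UMIs at 30 °C and 4.29 and 3.89 at 4 °C, so that the whole distribution lay lower in cold. In single macrophages at 30 °C, Mt1 and Mt2 ranked alike (Spearman's rho 0.64 and 0.61 across 132 and 153 thinned cells). At 4 °C rho was 0.20 and 0.23, in libraries where most macrophages had no Mt2 UMI.

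**Figure D2:**
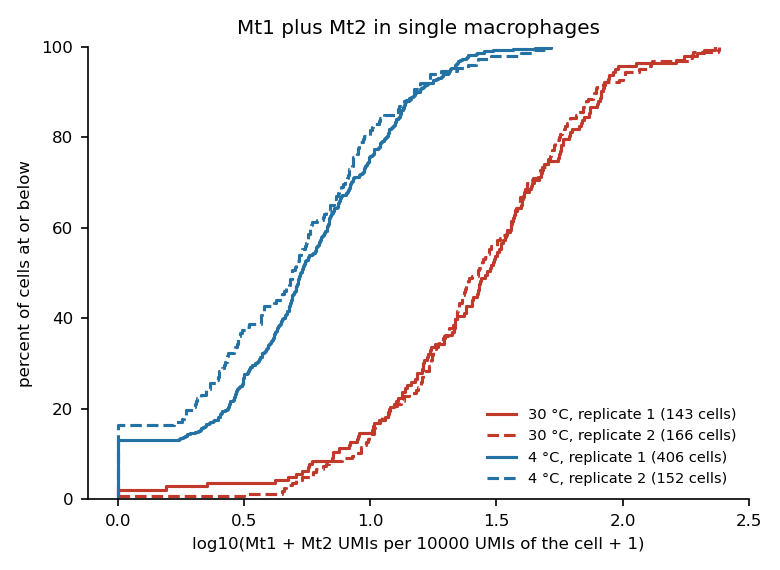
Cumulative share of macrophages (vertical axis, percent of cells) at or below a level of Mt1 plus Mt2, given as log10(UMIs per 10000 UMIs of the cell + 1), with 1 line per library (red, 30 °C; blue, 4 °C). The cold lines lie to the left of the thermoneutral lines over their whole length, with medians of 4.29 and 3.89 against 28.1 and 25.8 UMIs per 10000.

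Macrophages with resident markers such as Folr2, Lyve1 and Timd4 had the highest Mt1 of the 3 subsets at both temperatures. Their Mt2 was the highest at 30 °C. Of 867 macrophages, 608 were resident by this gate, and their Mt1 stood at 3555 and 3579.9 CPM at 30 °C against 638 and 585 CPM at 4 °C. Their Mt2 went from 653 and 738 CPM to 22.1 and 40.1 CPM. The log2 fold changes were −2.60 ± 0.08 for Mt1 and −4.71 ± 0.16 for Mt2, in a subset where 21.5% of 8331 genes were called. The Itgax or Trem2 gate is named after markers of cells recruited to fat. It took macrophages with at least 2 of Itgax, Trem2, Cd9, Lpl and Mmp12 and at most 2 resident markers. A cell could therefore pass without a UMI of Itgax or Trem2. Macrophages in this gate had less Mt1 at 30 °C, 981 and 1139.9 CPM, and 463 and 435 CPM at 4 °C, from only 10 and 12 thermoneutral cells. Mt2 in this gate went from 197 and 121 CPM to 57.4 and 21.1 CPM, so that at 4 °C it overlapped that of resident macrophages. Proliferating macrophages, with 3 to 21 cells per library, went from 2153 and 2329 CPM of Mt1 to 463 and 395 CPM. All 3 subsets thus had less Mt1 in both cold libraries than in both thermoneutral libraries.

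The makeup of the macrophage gate moved with temperature as well. The summed level of the 6 resident markers in macrophages was 6509 and 6047 CPM at 30 °C against 4401 and 4213 CPM at 4 °C, and that of the 5 Itgax or Trem2 markers was 1676 and 916 CPM against 2095 and 2372 CPM. Within the resident gate, which itself rests on the resident markers, the log2 fold changes were −2.60 for Mt1 and −4.71 for Mt2. In all macrophages they were −2.52 and −4.29. Markers of the macrophage lineage itself, all 10 detected, summed to 17822 and 18325 CPM at 30 °C against 16373 and 16261 CPM at 4 °C. The part of cell makeup in the result was not tested.

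Mt1 and Mt2 did not fall in proportion in macrophages. Macrophages held 5.45 and 5.30 Mt1 UMIs per Mt2 UMI at 30 °C and 21.9 and 14.2 at 4 °C. Resident macrophages gave 5.44 and 4.85 at 30 °C and 28.8 and 14.6 at 4 °C. Itgax or Trem2 macrophages gave 4.97 and 9.43 at 30 °C and 8.06 and 20.6 at 4 °C, on 5 to 33 Mt2 UMIs per library. In dendritic cells the ratio was 8.25 and 7.05 at 30 °C and 6.87 and 6.72 at 4 °C, and in plasma cells it was 5.72 and 8.54 at 30 °C and 7.22 and 5.98 at 4 °C. In all macrophages and in resident macrophages, both cold ratios thus lay above both 30 °C ratios. The 2 cold libraries differed widely, on 95 and 58 Mt2 UMIs in all macrophages and 49 and 34 in resident ones. The ratios of plasma cells and of Itgax or Trem2 macrophages overlapped between temperatures. Regulatory T cells gave 4.74 and 9.71 at 30 °C and 12.3 and 10.0 at 4 °C, but on only 10 and 15 cold Mt2 UMIs. The ratios were not tested, and since capture can differ between transcripts, a ratio is comparable between libraries rather than a measure of the proteins.

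**Figure D3:**
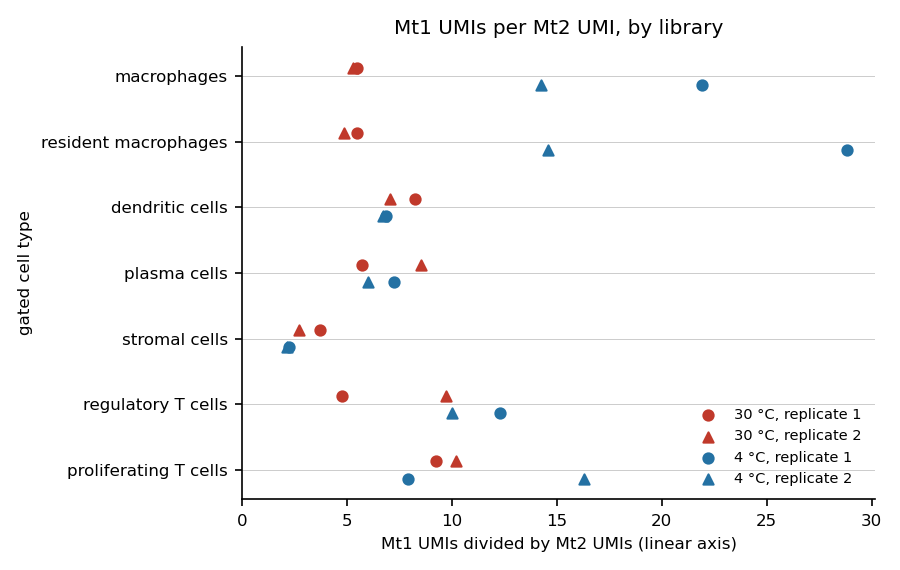
Mt1 UMIs divided by Mt2 UMIs (linear horizontal axis) in 7 cell gates, with a point per library (red, 30 °C; blue, 4 °C). Macrophages sit at 5.45 and 5.30 at 30 °C and at 21.9 and 14.2 at 4 °C, while dendritic and plasma cells stay between 5.72 and 8.54 in all 4 libraries.

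Plasma cells, the antibody-secreting cells of the B lineage, also lost Mt1. Their Mt1 went from 498 and 342 CPM to 97.5 and 104 CPM, with no overlap and a log2 fold change of −2.11 ± 0.21, or 4.31-fold lower. Mt2 went from 87.0 and 40.1 CPM to 13.5 and 17.4 CPM, with a log2 fold change of −2.10 ± 0.39 that was not called, in a cell type where 0.563% of 7100 genes were called. Without the first thermoneutral library the Mt2 value was −1.33, and leaving out any other library gave −2.59 to −1.93. In the 30 °C libraries 74.8% and 61.0% of plasma cells had an Mt1 UMI, against 45.6% and 48.8% at 4 °C. The Mt1 call was lost when cells of 5000 genes or more were kept, where 7 genes in all were called.

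Dendritic cells, the antigen-presenting cells of the sort, had a smaller change. Mt1 went from 1014 and 1020.4 CPM to 565 and 667 CPM, a log2 fold change of −0.75 ± 0.12 that was called, where 1.8% of 6555 genes were. Mt2 went from 123 and 145 CPM to 82.3 and 99.2 CPM, a log2 fold change of −0.58 ± 0.19 that was not called. Both genes were lower in each cold library than in either thermoneutral one, and the Mt1 call was lost with stricter marker gates and with Seurat clusters in place of gates.

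Stromal cells, few in this sort, could not be read as firmly. Their Mt1 was 1183 and 5025 CPM at 30 °C against 578 and 634 CPM at 4 °C, with a log2 fold change of −2.38 ± 0.53 that was not called (0.389% of 3345 genes were). In the second thermoneutral library, 1 of 25 stromal cells held 610 of the 1473 Mt1 plus Mt2 UMIs, and without it Mt1 stood at 3106 CPM. The summed level of 5 blood endothelial markers was also 3369 CPM in that library's stromal cells against 44.3 to 517 CPM in the other 3, and its part in the result was not tested. Stromal cells also had fewer UMIs at 30 °C, with a median of 4271.5 and 5643 per cell against 12916.5 and 12153.5 at 4 °C, and the part of depth in the result was not tested. Mt2 was high in stromal cells at both temperatures, with 318 and 1848 CPM at 30 °C.

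Regulatory T cells, which restrain immune responses in fat, lost both metallothioneins. Mt1 went from 95.9 and 68.3 CPM to 21.2 and 28.5 CPM, a log2 fold change of −1.78 ± 0.18, and Mt2 from 20.2 and 7.03 CPM to 1.73 and 2.85 CPM, a log2 fold change of −2.64 ± 0.51. Both were called, where 4.28% of 10311 genes were, and Mt2 ranked 7th from the lowest log2 fold change. In the first thermoneutral library, however, 1 of 661 regulatory T cells held 129 of 511 Mt1 plus Mt2 UMIs, and without it that library's Mt1 and Mt2 stood at 74.4 and 12.8 CPM. Without the top cell of each library the 2 temperatures still did not overlap for either gene.

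B cells, the most numerous type, had a smaller fall from a low level. Their Mt1 gave 771 and 695 UMIs in 2151 and 2065 cells at 30 °C and 289 and 471 UMIs in 1737 and 2245 cells at 4 °C. The log2 fold change was −1.04 ± 0.09, or 2.06-fold lower, and was called, where 15.2% of 11543 genes were and 7.57% as lower. An Mt1 UMI was present in 13.2% and 12.3% of B cells at 30 °C and in 6.28% and 5.61% at 4 °C. Few B cells carried most of the signal, with the top 10% of cells holding at least 90.4% of Mt1 plus Mt2 UMIs in every library. Mt2 was close to the limit of detection at 71, 38, 7 and 62 UMIs, and 40 of the last 62 came from 1 cell. Its log2 fold change of −0.78 ± 0.54 was not called.

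As a measure of free macrophage RNA in the droplets, macrophage C1q genes in B cells reached 0.0441% to 0.0755% of their macrophage level, while Mt1 reached 1.21% to 3.99%. The lymphocyte gates leave out cells with more than a few macrophage markers, so the gate itself may hold the C1q level low. The C1q share therefore sets no upper limit on free macrophage RNA and cannot be weighed against the Mt1 share. GC B cells had 0.22% to 0.63% of the macrophage Mt1 level. Free RNA from stromal, dendritic or plasma cells was not measured, and the part of free RNA in the lymphocyte values was not tested.

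The other lymphocyte types fell in the same direction where they could be tested. Proliferating T cells had 68.6 and 102 CPM of Mt1 at 30 °C and 41.8 and 32.0 CPM at 4 °C (log2 fold change −1.28 ± 0.18, called, where 7.96% of genes were). Proliferating B cells had 52.3 and 43.7 CPM against 22.8 and 6.86 CPM (−1.83 ± 0.32, called, where 1.74% were). GC B cells (−1.44 ± 0.47, with 2.57% called), other T cells (−0.68 ± 0.21, with 4.4% called), group 2 innate lymphoid cells (ILC2, −0.60 ± 0.42, with 2.74% called) and γδT cells (−0.58 ± 0.47, with 4.68% called) were negative and not called. In ILC2 the Mt1 libraries overlapped, at 13.8 and 28.3 CPM against 18.4 and 7.65 CPM. Eomes T cells, where 0.0373% of genes were called, had too few Mt1 UMIs, 1 to 6 per library, to be tested. With regulatory and other T cells pooled as αβT cells, the log2 fold change was −1.56 ± 0.18 for Mt1 and Mt2 was 4.01-fold lower, both called beside 6.96% of 11353 genes, with 3.95% called as lower. In these pooled cells the Mt2 call was lost in 5 of the 14 alternatives that gave an adjusted p (DESeq2 gave none for this gene). Among these were the fits without the first thermoneutral library, where the log2 fold change was −0.92, and without the first cold library, where it was −1.77, and the Mt1 call was lost in 1 of 15, with no filter on low counts.

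Over the 13 cell types, Mt1 passed the filter on low counts in 12 and had a negative log2 fold change in 12, from −2.52 to −0.58, with 7 called lower. Mt2 passed in 7 and was negative in 7, from −4.29 to −0.58, with macrophages and regulatory T cells called. In the types tested, 0.389% to 8.54% of all genes were called lower. Since Mt1 and Mt2 were chosen for their fall, their counts describe it and do not support it.

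**Figure D4:**
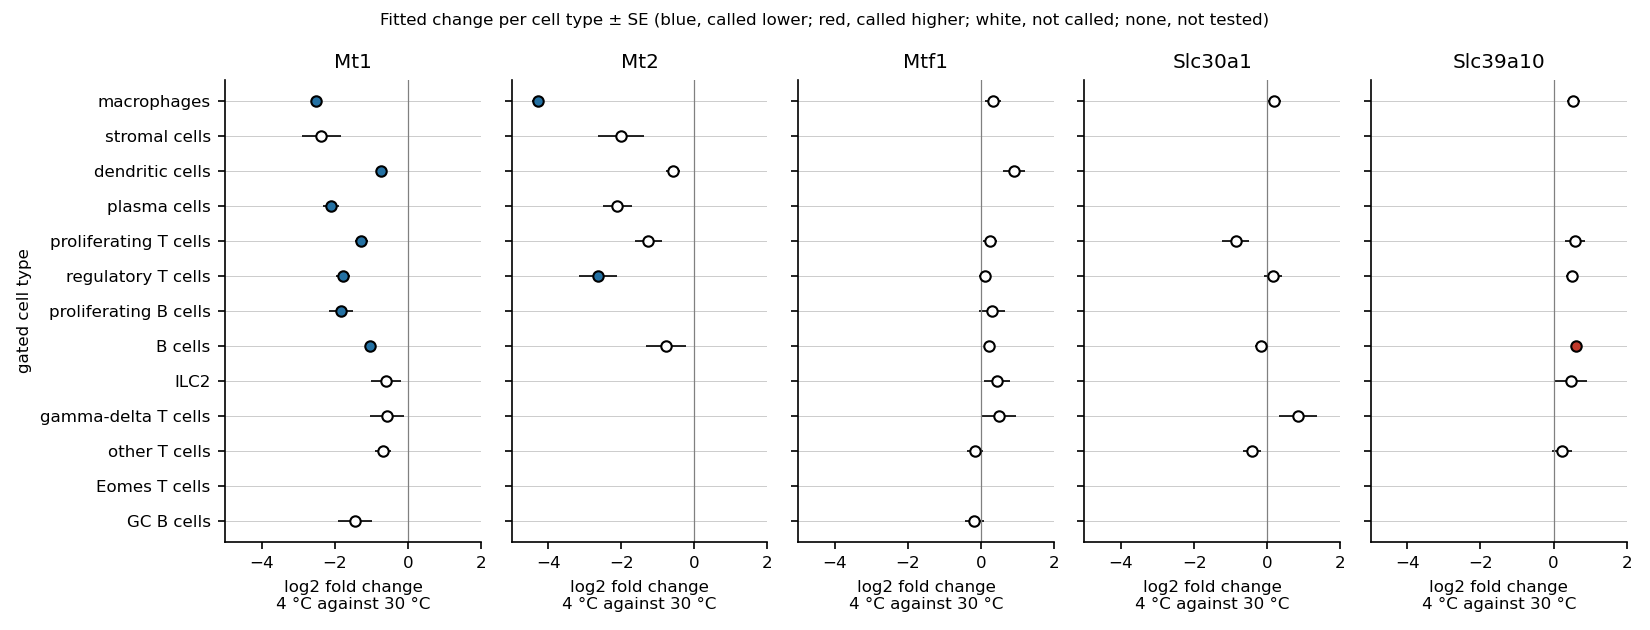
Fitted log2 fold change (4 °C against 30 °C, horizontal axis, with SE as bars) of the 5 genes in the 13 gated cell types. Mt1 and Mt2 points lie left of 0 in each type tested, Slc39a10 points lie right of 0 in the 6 types tested, and Mtf1 and Slc30a1 points lie on either side and were not called in any type.

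The zinc sensor and the exporter gave no call in any type. In the types where either was tested, 1.74% to 17.2% of all genes were called, so the absence of calls sets neither gene apart. Mtf1, whose product drives both genes, stood in macrophages at 19.8 and 18.4 CPM at 30 °C against 24.5 and 26.1 CPM at 4 °C. Its log2 fold change of 0.34 ± 0.22 was not called, and over 10 types tested it was positive in 8, negative in 2 and called in 0. The highest was in dendritic cells, from 17.5 and 28.6 CPM to 46.4 and 39.1 CPM (0.91 ± 0.31, not called), a type in which Mt1 was lower. Slc30a1, which is induced by zinc through MTF-1 much as Mt1 is, had 34.2 and 33.8 CPM in macrophages at 30 °C and 41.6 and 38.4 CPM at 4 °C (0.20 ± 0.17, not called). Over 6 types it was positive in 3, negative in 3 and called in 0.

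Slc39a10, the importer, had higher values in the cold. In macrophages it went from 26.7 and 26.4 CPM to 40.0 and 40.5 CPM, without overlap, a log2 fold change of 0.54 ± 0.18 that was not called. In B cells it went from 5.57 and 6.49 CPM to 9.84 and 10.0 CPM, a log2 fold change of 0.62 ± 0.12, or 1.54-fold higher, which was called beside 7.68% of genes called as higher there. This call was lost with DESeq2 and without the first thermoneutral library, and its log2 fold change lay between 0.50 and 0.74 over 15 alternatives. Regulatory T cells had 11.1 and 11.8 CPM at 30 °C against 17.3 and 16.4 CPM at 4 °C (0.51 ± 0.16, not called). All 6 types tested gave a positive value, from 0.22 to 0.62. At both temperatures macrophages had the highest Slc39a10 level of the 13 types, and plasma cells, at 1.36 and 0.42 CPM at 30 °C, the lowest. In single macrophages of the 4 libraries Slc39a10 was found in 19.9% to 28.9% of cells, or in 11.1% to 16.8% of thinned cells with no order by temperature, and its count showed rank correlations of only −0.05 to 0.13 with Mt1 plus Mt2 across cells.

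The remaining metallothioneins and zinc transporters gave no call. Of 22 further Slc30a exporter and Slc39a importer genes, 17 could be tested in at least 1 type. In 133 tests over the 13 types, edgeR's quasi-likelihood test with Benjamini-Hochberg adjustment called 0, with a smallest adjusted p of 0.123 and 14 tests under 0.05 unadjusted (6 higher and 8 lower), in types where 0.0373% to 17.2% of all genes were called. DESeq2, run in 5 types, also called 0. In macrophages the most abundant was Slc39a1, which encodes ZIP1, at 124 and 125 CPM at 30 °C against 148 and 144 CPM at 4 °C (log2 fold change 0.18 ± 0.11, adjusted p = 0.317, edgeR). Slc39a7, an importer from the endoplasmic reticulum, had 57.5 and 57.8 CPM against 51.5 and 56.3 CPM (−0.17 ± 0.15, adjusted p = 0.503, edgeR). Slc30a5, an exporter into the secretory pathway, had 31.5 and 39.3 CPM against 47.0 and 44.6 CPM (0.32 ± 0.18, adjusted p = 0.256, edgeR). Median log2 fold changes in macrophages were −0.03 over 5 exporters and −0.14 over 8 importers tested, beside a median of −0.002 over all genes tested.

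Mt3 and Mt4 lie in the same cluster as Mt1 and Mt2. Mt3, known mainly from the brain, was highest among the 13 types in proliferating T cells, at 15.8 and 16.0 CPM at 30 °C against 16.1 and 13.5 CPM at 4 °C (log2 fold change −0.18 ± 0.18, adjusted p = 0.589, edgeR). Among 4 tests of Mt3, 0 were called by edgeR and 0 were under 0.05 unadjusted, and DESeq2 also called 0. Mt4 had 0 UMIs in every gated type. In proliferating T cells Mt1 was lower in both cold libraries while Mt3 levels overlapped between temperatures. Among genes within 200 kb, Nudt21, Ogfod1 and Nup93 were not called in macrophages (edgeR adjusted p from 0.282 to 0.863). Slc12a3, a sodium chloride transporter gene downstream of the cluster, was lower at 4 °C in B cells (log2 fold change −1.21 ± 0.33, adjusted p = 0.0322, edgeR) and in plasma cells (−2.13 ± 0.31, adjusted p = 0.0282, edgeR).

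Of 8 other reported MTF-1 targets, 6 could be tested in macrophages and 1 was called, beside 17.2% of all genes there, with a median log2 fold change of 0.11. That gene was Gclc, the catalytic subunit of the enzyme that makes the first step of glutathione synthesis, at 45.8 and 32.0 CPM at 30 °C against 21.9 and 19.2 CPM at 4 °C (−0.93 ± 0.22, adjusted p = 0.0136, edgeR). Gclc also fell in B cells, from 16.8 and 16.7 CPM to 13.5 and 14.7 CPM (−0.34 ± 0.09, adjusted p = 0.0258, edgeR). Selenow, a selenoprotein gene, rose slightly in B cells (0.16 ± 0.04, adjusted p = 0.0370, edgeR), and Cebpa, a transcription factor gene, rose in other T cells (0.60 ± 0.14, adjusted p = 0.0231, edgeR). Ndrg1 rose in γδT cells (2.02 ± 0.53, adjusted p = 0.0172, edgeR) at 3.63 and 6.05 CPM against 22.7 and 15.7 CPM, with 28 cells in the second cold library. Over the 13 types, 3 of 63 tests of this list were called higher and 2 lower, where 0.0373% to 17.2% of all genes were called per type.

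Copper genes were tested as a further list of metal handling. In macrophages Slc31a1, which encodes the copper importer CTR1, fell from 70.5 and 57.1 CPM to 44.5 and 48.1 CPM (log2 fold change −0.53 ± 0.16, adjusted p = 0.0442, edgeR), and its relative Slc31a2 rose from 24.6 and 43.0 CPM to 53.7 and 69.3 CPM (0.75 ± 0.23, adjusted p = 0.0462, edgeR). Both passed the threshold narrowly, among 10 copper genes tested there with a median of 0.05, and 17.2% of all genes were called in macrophages. In B cells Cox17 (0.24 ± 0.05, adjusted p = 0.0100, edgeR) and Commd1 (0.30 ± 0.06, adjusted p = 0.00702, edgeR), a copper chaperone and a regulator of copper transport, rose. Cox17 also rose in ILC2 (0.57 ± 0.13, adjusted p = 0.0329, edgeR), and Ccs, the chaperone that delivers copper to Sod1, fell in other T cells (−0.54 ± 0.11, adjusted p = 0.0134, edgeR). Over 114 tests of 12 copper genes in the 13 types, 4 were called higher and 2 lower, beside the same 0.0373% to 17.2% of all genes per type.

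Targets of NRF2, the transcription factor of the oxidative stress response, were a further list. Of 9 tested in macrophages, 2 fell, beside 17.2% of all genes called there, with a median log2 fold change of −0.23. Hmox1, heme oxygenase, fell from 575 and 471 CPM to 317 and 297 CPM (−0.82 ± 0.11, adjusted p = 0.000375, edgeR), and Gsr, glutathione reductase, from 56.8 and 55.3 CPM to 35.2 and 43.2 CPM (−0.61 ± 0.17, adjusted p = 0.0270, edgeR). In B cells Txnrd1, thioredoxin reductase, rose from 16.8 and 15.7 CPM to 22.9 and 22.7 CPM (0.39 ± 0.08, adjusted p = 0.00888, edgeR). No other test of this list among 76 over the 13 types was called.

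Many genes known to be induced by glucocorticoids fell as well. Their list was chosen with earlier results of these data known, so its counts of calls describe these data. In macrophages 10 of 13 tested were called lower and 0 higher, with a median log2 fold change of −1.72, beside the 8.54% of all genes called lower. Ddit4, an inhibitor of mTORC1 signalling, went from 394 and 346 CPM to 2.81 and 1.37 CPM (−7.29 ± 0.21, adjusted p = 6.07e-09, edgeR). Fkbp5, a co-chaperone of the glucocorticoid receptor, went from 426 and 446 CPM to 16.9 and 9.61 CPM (−4.96 ± 0.17, adjusted p = 1.15e-08, edgeR). The transcription factor genes Klf9 (−3.44 ± 0.15, adjusted p = 4.90e-08, edgeR) and Zbtb16 (−3.00 ± 0.22, adjusted p = 3.87e-06, edgeR) also fell.

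In B cells 7 of 12 genes of this list were called lower, beside 7.57% of all genes, and in αβT cells 6 of 14, beside 3.95% of all genes, with 0 higher in either. Fkbp5 fell in B cells from 71.8 and 69.1 CPM to 8.86 and 8.21 CPM (−3.15 ± 0.07, adjusted p = 2.09e-09, edgeR). Sesn1, a stress-inducible regulator of mTORC1, fell there from 130 and 129 CPM to 28.5 and 34.3 CPM (−2.14 ± 0.07, adjusted p = 4.46e-08, edgeR), with Ddit4 (−1.78 ± 0.12, adjusted p = 7.22e-06, edgeR) and Tsc22d3 (−1.73 ± 0.09, adjusted p = 1.03e-06, edgeR), which encodes the glucocorticoid-induced leucine zipper. In αβT cells Klf9 (−2.09 ± 0.11, adjusted p = 7.53e-06, edgeR) and Fkbp5 (−1.85 ± 0.06, adjusted p = 7.28e-07, edgeR) fell most. Over the 13 types 60 of 138 tests were called lower and 4 higher. Tsc22d3 was lower in 13 of 13 types, Ddit4 in 12 of 13, Fkbp5 in 9 of 13 and Klf9 in 8 of 10. The higher calls were Zfp36 in dendritic and regulatory T cells and Nfkbia in regulatory and proliferating T cells.

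**Figure D5:**
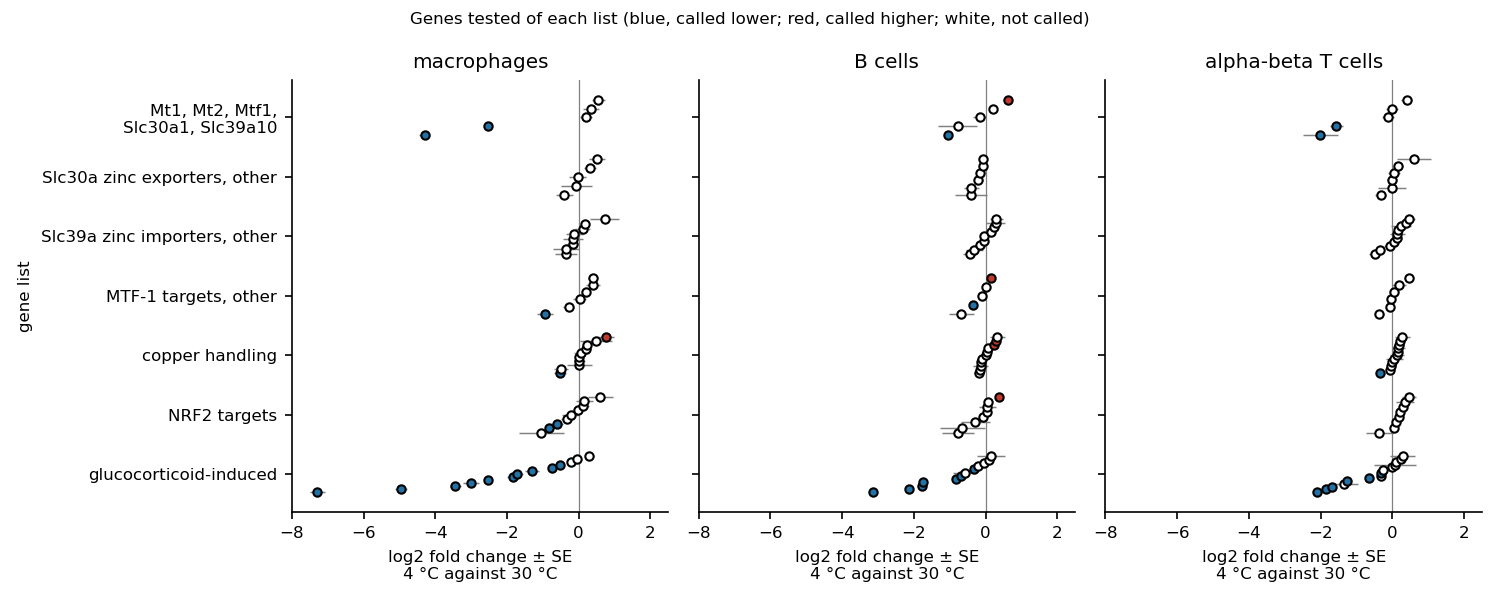
Fitted log2 fold change (4 °C against 30 °C, horizontal axis, SE as bars) of each tested gene of 7 lists in macrophages, B cells and αβT cells. Blue points, called lower, are most numerous in the glucocorticoid-induced row, with 10 of 13 macrophage genes, beside 8.54% of all genes called lower there. That list and the 5 chosen genes were picked with results of these data known. In macrophages the chosen genes and the NRF2 targets hold 2 blue points each, and copper genes and MTF-1 targets 1 each. Beyond the chosen ones, 0 exporters and 0 importers are colored.

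The changes differed between cell types. For Mt1, the macrophage change was lower than that of B cells by a log2 difference of −1.45 ± 0.12 and than that of αβT cells by −0.94 ± 0.15, and for Mt2 the differences were −3.28 ± 0.38 and −2.22 ± 0.42. These are descriptions, and the differences for Mtf1, Slc30a1 and Slc39a10, from −0.06 to 0.37, were each within 1.5 SE of 0. An interaction test in edgeR called a difference between macrophages and B cells for 7.28% of genes, between macrophages and αβT cells for 7.52% and between B cells and αβT cells for 2.51%. It called 0 of the other zinc transporters, copper genes and MTF-1 targets in any of the 3 comparisons. Of the glucocorticoid-induced genes it called 7 of 15, 10 of 15 and 6 of 14 in the same order, with Ddit4 falling more in macrophages than in B cells by −5.39 ± 0.29 (adjusted p = 1.64e-13, edgeR).

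The genes whose level was most like that of Mt1 plus Mt2 were named by a fixed rule. Over 52 sums (13 types in 4 libraries) and 5306 genes with enough UMIs, Pearson's r on the log scale was highest for Slc44a1 (0.83), a choline transporter gene, Kdelr1 (0.81), Cst3 (0.81), P2rx4 (0.81) and Asah1 (0.77). With each type's mean removed, which leaves the differences between libraries, the highest were Rps3 (0.80), Fnip1 (0.74), Ip6k2 (0.74), Rps15a (0.72) and Irs2 (0.72). By Spearman's rho these genes ranked between 2nd and 16th in the first measure and between 2nd and 75th in the second. The sums share libraries and depth, so these values are given without a p.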

How the data were processed

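Per the file headers and the study's methods, the authors aligned droplet-based 3′ reads to mm10 with Cell Ranger 3.0.0 (the submitters' processing notes name 3.1.0) and deposited whole-number UMI counts per gene and cell, with no normalization. The 4 libraries, 2 per temperature, were each prepared from 4 pooled mice, so p-values measure the spread between pools. Cells were kept with over 200 and under 5000 genes and under 7.5% mitochondrial UMIs, and typed by how many markers of a lineage they held (at least 4 for B and T cells and 6 for macrophages, with at most 2 of another lineage). The counts of markers a gate needs were set after marker values, but not values of the 5 genes, had been seen. Scrublet doublets were kept in the main analysis. UMIs were summed per type and library and tested across all genes with edgeR 4.0.16 (quasi-likelihood, TMM, R 4.3.3), at 4 °C against 30 °C, without a replicate block. Genes passed edgeR's filter on low counts. The interaction test fitted the sums of both types together.

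The 5 genes and the gene lists were chosen with earlier results of these data known. Named are the 5 genes in each type, called zinc transporters and metallothioneins, up to 4 called genes of each other list per type with the largest absolute log2 fold change, and the 5 genes most correlated with Mt1 plus Mt2 in each measure. Some further list genes are named for their level or for a count of types and were chosen after their values were seen. The stated share of cells is per gated type, and thinning drew 4400 UMIs per cell. On simulated counts, the edgeR fit recovered 85.5% of changed genes in macrophages, 93.3% in B cells and 91.3% in αβT cells. Replicates differed beyond sampling noise (chi-square per degree of freedom 2.13 to 18.0), so none were merged. Alternatives were DESeq2 1.42.0, its size factors, no filter on low counts, immunoglobulin genes left out, a replicate block, other cell filters, Scrublet doublets removed, Seurat 5.3.0 clusters and leaving out each library. Stricter gates, proliferating cells included and leaving out the cell with the most metallothionein UMIs were chosen after seeing the data. Promoter windows and gene positions came from RefSeq and GENCODE annotation of the same build. Python 3.11.15 and scanpy 1.11.5 were used for cell steps.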

Additional observations from a re-analysis of the deposited data

Results flagged for a closer look

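Some listed genes changed to a different extent in different cell types, by the interaction test in edgeR, and none of them was a zinc transporter, copper gene or MTF-1 target. Between macrophages and B cells the log2 changes differed by −5.39 for Ddit4 (adjusted p = 1.64e-13, edgeR), by −2.82 for Klf9 (6.93e-10), by −1.85 for Fkbp5 (5.61e-07) and by 1.97 for Sesn1 (1.10e-09), where a negative value means a lower change in macrophages. Sesn1 thus fell more in B cells, the opposite of the other 3 genes. Between macrophages and αβT cells the differences were −5.99 for Ddit4 (adjusted p = 4.06e-19, edgeR), −3.10 for Fkbp5 (2.71e-14), −1.78 for Zbtb16 (0.00381), −1.50 for Per1 (1.19e-06) and −1.25 for Hmox1 (4.93e-05). Between B cells and αβT cells they were −1.50 for Sesn1 (adjusted p = 8.72e-07, edgeR), −1.31 for Fkbp5 (1.62e-06), −0.53 for Ddit4 (0.0139) and 1.42 for Klf9 (0.000475), so that Klf9 fell more in αβT cells.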

How the results depend on the processing

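Over 295 alternative values of the 5 genes in 5 cell gates, 288 kept their sign and 7 did not, all of Mtf1 or Slc30a1 in αβT cells or Slc30a1 in B cells. Mt1 stayed called lower in macrophages and in B cells in 15 of 15 alternatives each, and Mt2 in macrophages in 15 of 15. These refits reuse the counts from which both genes were chosen, so they describe the settings and do not support the fall. The log2 fold change in macrophages was for Mt1 −2.48 when cells of 5000 genes or more were kept, −2.57 with stricter gates, −2.48 with proliferating cells included and −2.55 to −2.49 leaving out 1 library, and for Mt2 −4.52 to −3.96 leaving out 1 library. That of Slc39a10 there was 0.57 with such cells kept, 0.59 without Scrublet doublets, 0.74 with Seurat clusters, 0.70 with stricter gates, 0.59 with proliferating cells and 0.53 to 0.55 leaving out 1 library, and it was called in 4 of 15 alternatives. The Mt2 change in B cells ranged from −2.82 to −0.06, the last without the first cold library.

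Counts of genes called depended more on the setting. In macrophages (1542) DESeq2 called 712. In B cells (1760) DESeq2 called 840, and leaving out 1 library gave 938 (without the first thermoneutral library) to 1466. In αβT cells (790) DESeq2 called 363, no filter 25 (20% of them higher, against 43.3%), stricter gates 420, proliferating cells included 1603 and leaving out 1 library 518 to 704. In plasma cells (40) the counts were 63 with DESeq2, 319 with no filter, 131 without immunoglobulin genes, 7 with such cells kept, 78 with Seurat clusters and 69 to 204 leaving out 1 library, with 15% higher in the main fit, 35.1% with no filter and 57.1% with such cells kept. In dendritic cells (118) they were 71 with DESeq2, 260 with no filter and 138 to 202 leaving out 1 library. The causes were not tested.

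Among zinc transporters, Mt3 and Mt4, where 0 were called, single calls appeared in macrophages with no filter (1, Mt3) and leaving out 1 library (0 to 1), in B cells with stricter gates (1, Slc39a4) and leaving out 1 library (0 to 1), and in αβT cells with proliferating cells included (1, Slc39a4). With a replicate block the calls were 1 in B cells (Slc39a7) and 2 in αβT cells (Slc39a9 and Slc39a6), and genes called were 1477 in αβT cells, 176 in plasma cells (28.4% higher) and 303 in dendritic cells. In B cells the block gave 2341 genes. The labels tie same-numbered libraries to no shared animal or batch, and 2 pairs are too few to show pairing from the data, so none was assumed. Deviations of same-numbered libraries correlated at −0.04 in macrophages, 0.31 in B cells, −0.02 in αβT cells, 0.11 in plasma cells and −0.03 in dendritic cells. Proliferating cells formed types of their own, so leaving them out was already part of the main values. With 2 libraries per temperature and under 100 cells of some types in a library, small changes of low genes could not be resolved.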

Other observations

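Lymphatic endothelial cells, which line lymph vessels and fell short of 20 cells in a library, had 173 and 457 CPM of Mt1 at 30 °C and 137 and 18.5 CPM after cold, and 77.2 and 88.9 CPM of Mt2 against 169 and 23.1 CPM. Macrophages held 11, 2, 0 and 2 Mt3 UMIs in the first and second thermoneutral and the first and second cold library, and 10, 2, 0 and 0 of them lay in the Itgax or Trem2 gate, which held 10, 12, 44 and 19 cells. Slc39a10 in resident macrophages stood at 26.8 and 29.2 CPM at 30 °C and at 42.9 and 43.6 CPM after cold.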
